A study of Mus musculus with 2 samples.

Results

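The cytosolic ribosomal protein genes were followed through the leukocytes of the inflamed mouse spinal cord. Their rows were those with a symbol of Rps or Rpl and a digit, Rplp0, Rplp1, Rplp2 or Rpsa, without rows marked as pseudogenes by -ps and without the kinase rows Rps6k. The pattern found 94 of the 28482 genes in the matrix, and 92 had a count in at least 100 cells. By symbol, 53 of the 92 go with the large subunit and its stalk and 37 with the small subunit, but GENCODE types 7 members as pseudogenes, among them Rps4l and Rpl37rt. The other 2, Rps19bp1 and Rps23rg1, share the start of the symbol but encode no subunit of the ribosome. The smallest count above 0 was 1 in all 92, whereas 42 other genes had no count between 0 and 4.

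CD45+ cells, which are leukocytes and microglia, came from spinal cords of C57BL/6 mice with EAE (experimental autoimmune encephalomyelitis, in which immune cells attack brain and spinal cord), taken 15 days after induction. All 4 mice had EAE, and 2 were untreated and 2 received an inhibitor. The sources used here do not give the inhibitor's name, dose or schedule or the age of the mice. The series title also names WT and STAP-1 mice, but the labels give C57BL/6 for all 4. Each mouse was stained with its own antibody hashtag, and the cells were pooled and measured as 1 library. The labels number the mice 1 and 2 within a group and name no pairs. Values for 4 mice are given below in the order untreated 1, untreated 2, treated 1 and treated 2.

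The ribosome makes every protein of the cell, and its small and large subunits each carry a set of ribosomal proteins around ribosomal RNA. The mRNAs of these proteins are among the most abundant in growing cells, and many start with a pyrimidine tract (the TOP motif) through which growth signalling controls their translation. Neutrophils are made in the bone marrow from dividing precursors and lose much of their capacity for protein synthesis as they mature, while lymphocytes keep it.

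After filtering, 4324 and 4569 cells of the untreated and 5453 and 4910 of the treated mice were kept, with 49327024, 54130679, 61984993 and 57862743 counts and a median of 8246 to 8588 counts per cell. Ptprc, which encodes CD45, had a count in 79.4% to 80.2% of the cells of each mouse and in 40.7% to 71.4% of the erythroid cells, which should lack it when mature. Cells were clustered without any ribosomal protein row, so that no member shaped the classes, and 16 classes were named from marker genes. Each class name stands for cells that resemble the class in those markers. T cells without subtype are cluster 12, with 548 cells and 10 of 13 T cell markers detected, but its leading genes Xcl1, Klra6, Klra7, Trgc4 and Cd160 include genes that also lead the NK or the gamma-delta T cell cluster. Cd3e was at 356.3 to 450.6 CPM (a gene's counts scaled to the same total for each class and mouse) in cluster 12 and at 23.13 to 33.17 in NK cells, while the NK cell gene Ncr1 was at 3.51 to 26.83 and 321.7 to 420.2 CPM. Cluster 20, led by the cell division genes Pclaf, Stmn1 and Top2a, and cluster 24, led by the granule genes Mpo, Ctsg and Elane, stayed unnamed.

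RefSeq start-site sequences were at hand for 67 of the 92 members (assembly GRCm38.p6). The 6 below show the start of 3 members that were lower in immature than in mature neutrophils (Rps9, Rpl37, Rps27) and of 3 of the 4 members with the highest folds of T cells over neutrophils (Rps18, Rpl13a, Rpl12). Each runs 5′ to 3′ from 30 bases before the annotated start to 20 bases from it, and capitals mark a pyrimidine tract, taken as a C followed by at least 4 bases that are each C or T, on the strand of the gene, beginning within 10 bases of the annotated start, either at the start itself or after an A or G.
Rps9 (chr7:3704011-3704060, plus strand): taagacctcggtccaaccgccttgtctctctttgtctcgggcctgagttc
Rpl37 (chr15:5116583-5116632, plus strand): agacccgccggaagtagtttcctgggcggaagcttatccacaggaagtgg
Rps27 (chr3:90213629-90213678, minus strand): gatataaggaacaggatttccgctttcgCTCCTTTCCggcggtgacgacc
Rps18 (chr17:33955646-33955695, minus strand): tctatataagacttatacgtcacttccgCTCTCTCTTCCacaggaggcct
Rpl13a (chr7:45128726-45128775, minus strand): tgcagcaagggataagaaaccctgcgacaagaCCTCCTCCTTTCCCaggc
Rpl12 (chr2:32961682-32961731, plus strand): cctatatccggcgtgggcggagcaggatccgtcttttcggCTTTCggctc
Such a tract lay in the window in 34 of the 67 members (50.7%) and in 26.8% of the 27025 genes of the table. In 15 members (22.4%) and 3.01% of all genes the bases from the annotated start onward were themselves such a tract, whether it began there or further upstream, as in Rps27 and Rps18. Annotated starts can be a few bases off, so the window may miss or add tracts. Rps27 and Rps18 each have an earlier, shorter tract in the window that also meets the rule but stays in lower case. Rps9 has a run of C and T bases across its annotated start. That run opens with a T after a G, so the rule left it unmarked. The same holds for a run in Rpl12 just after its annotated start. Members with and without a tract in the window had median log2 folds of 2.12 and 1.91 between T cells and neutrophils, a description without a test.

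The classes differed widely in how much of their mRNA came from these genes. The summed share, the members' counts as a percentage of all counts of a class in a mouse, was highest in T cells without subtype (cluster 12), at 23.6% and 23.1% in the untreated and 24% and 24.1% in the treated mice. It was lowest in mature neutrophils, at 2.08% and 1.94% against 2.06% and 1.95%. The 4 mice were closest in regulatory T cells (15.4% ± 0.0508, SD, n = 4) and spread most in microglia (8.08% ± 2.63). Counting error was small beside this, with 95% Wilson intervals of at most 0.138 points on either side in any class and mouse. These intervals treat each count as an independent draw and do not cover the sampling of cells. Among the 27 erythroid cells of treated replicate 1 the quartiles were 1.0% and 15.1%, and their summed share was 12.8%.

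**Figure D1:**
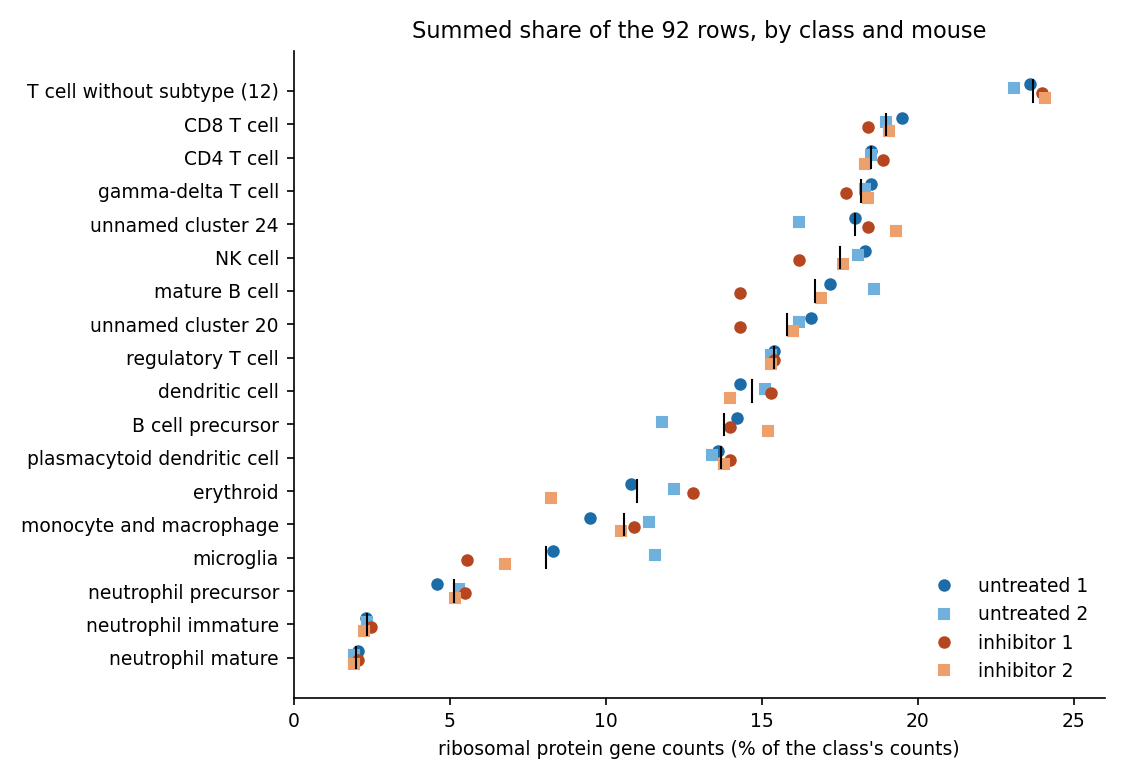
Counts of the 92 members as a percentage of all counts of a class (x axis), with 1 point per mouse and a black bar at the mean of the 4 mice. Points of the T cell classes run from 15.3% to 24.1% and those of mature neutrophils from 1.94% to 2.08%, while microglia run from 5.57% to 11.6%.

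Between these ends the order of the means was CD8 T cells (19.0%), CD4 T cells (18.5%), gamma-delta T cells (18.2%), the Mpo and Elane cluster 24 (18.0%), NK cells (17.5%), mature B cells (16.7%), the dividing cluster 20 (15.8%) and regulatory T cells (15.4%). Dendritic cells (14.7%), B cell precursors (13.8%), plasmacytoid dendritic cells (13.7%), erythroid cells (11%), monocytes and macrophages (10.6%), microglia (8.08%), neutrophil precursors (5.14%) and immature neutrophils (2.36%) followed. The ranges over the mice overlapped between most neighbours in this order. They were apart between T cells without subtype and CD8 T cells and between plasmacytoid dendritic and erythroid cells. With all genes counted, they were also apart at each step from microglia through neutrophil precursors and immature to mature neutrophils. The step from microglia to neutrophil precursors depended on the 42 genes without a count between 0 and 4. With them left out, the ranges of these classes overlapped, and in a treated mouse the share was lower in microglia. The 42 genes without a count between 0 and 4 made up 29.2% to 42.7% of erythroid counts. In plasmacytoid dendritic cells they made up 0.617% to 0.835%. Without these genes the order of this pair turned, with 14.4% to 18.0% in erythroid and 13.5% to 14.1% in plasmacytoid dendritic cells. In microglia without a count of any of 13 T cell markers the share was 5.23%, 5.65%, 5.11% and 5.43%. This range overlaps that of neutrophil precursors (4.6% to 5.48%). Those microglia were shallower, as given with the treatment comparison. Cluster 24 held only 14 to 50 cells per mouse and erythroid cells 17 to 28. The share of cluster 24 was 3.51 ± 0.382 times that of neutrophil precursors (SD, n = 4), with no mouse below 3.06. The size of this ratio also depends on the 42 genes, which made up 2.15% to 4.72% of cluster 24 counts. Without them the share of cluster 24 was 18.4%, 17.0%, 18.9% and 20.1%, so it stayed apart from precursors by a smaller ratio.

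T cells of all subtypes were compared with neutrophils of all stages. The summed share was 18.9%, 18.4%, 18.8% and 18.5% in T cells of untreated replicates 1 and 2 and treated replicates 1 and 2, and 2.47%, 2.91%, 2.69% and 2.51% in neutrophils. T cells thus had 7.08 ± 0.575 times the share (SD, n = 4) and the classes did not overlap. The size of this ratio depends on the 42 genes without a count between 0 and 4. They made up 29.2% to 30.2% of neutrophil counts and 0.292% to 0.444% of T cell counts. With them left out of the total, the share was 3.51%, 4.17%, 3.8% and 3.55% in neutrophils. In T cells it was then 19.0%, 18.5%, 18.9% and 18.6%, so the classes stayed apart by a smaller ratio. Per cell, the mean number of member counts was 1532 to 1746 in T cells and 271.8 to 437.4 in neutrophils, whose median total counts per cell were not lower (8637 to 10545 against 6660 to 7465).

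Of 91 members tested, 86 were higher in T cells, 4 were lower and Rps9 did not pass (edgeR quasi-likelihood test on counts summed per class and mouse, mouse as a block, TMM scaling, Benjamini-Hochberg adjusted p under 0.05 over all 15810 genes). Of all genes tested, 37.5% were higher and 34.4% lower. The members' median log2 fold was 2.00, against 0.00192 over all genes. TMM sets the typical gene to no difference. Without it, the log2 folds of all genes had a median of 0.875 and those of the members 2.88 with 88 higher and 2 lower. That scaling was added after the data were seen. Without cluster 12 among the T cells, also added then, 86 were higher and 4 lower.

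The highest folds of T cells over neutrophils were those of Rpl12 (log2 fold 3.39 ± 0.11 SE, adjusted p = 1.94e-09), Rpl3 (3.02 ± 0.11, 3.8e-09), Rpl13a (2.96 ± 0.08, 4.36e-10) and Rps18 (2.92 ± 0.12, 8.07e-09). Rpl12, a protein at the base of the stalk, was at 1787, 1728, 1817 and 1699 CPM in T cells. In mature neutrophils it was at 56.26, 60.07, 56.92 and 52.5 CPM. Every T cell value of Rpl12 was far above every neutrophil value. Rps18, a protein of the small subunit head, was at 4242, 4125, 4272 and 4085 CPM in T cells and at 163.9, 160.1, 130.6 and 132.4 CPM in mature neutrophils.

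**Figure D2:**
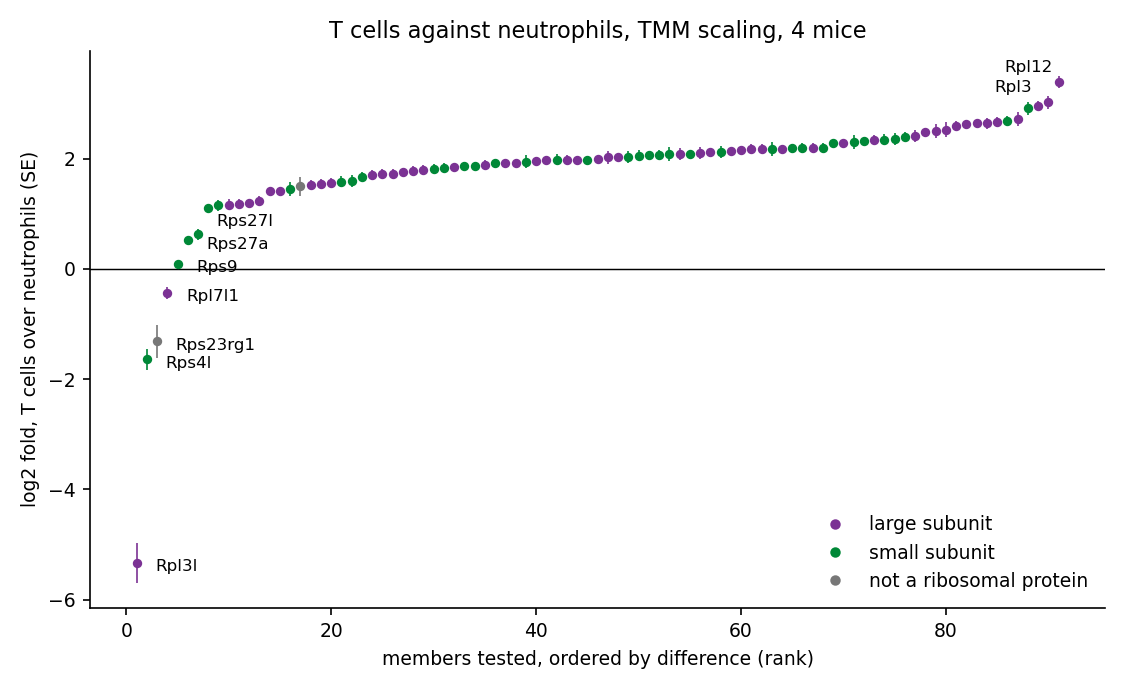
Log2 fold of T cells over neutrophils for the 91 members tested (y axis, bars are SE), ordered from lowest to highest (x axis) and coloured by subunit. Most members lie between 1 and 3, Rps9 lies at 0.09 and Rpl3l at −5.33.

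Proteins with named roles stood within the main body. The stalk proteins Rplp0 (1.88 ± 0.08, adjusted p = 1.68e-08), Rplp1 (2.59 ± 0.09, 1.97e-09) and Rplp2 (2.12 ± 0.08, 4.17e-09), which recruit translation factors, were higher in T cells. So were Rpsa, also known as a laminin receptor (2.30 ± 0.13, 9.63e-08), Rps6, the target of the S6 kinases (2.12 ± 0.10, 2.85e-08), and Rpl10, which joins the large subunit late (1.71 ± 0.09, 7.32e-08). Rps6 was at 1746, 1585, 1662 and 1670 CPM in T cells and at 142, 135.1, 151.5 and 137 CPM in mature neutrophils, again without overlap.

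Rps9, a small subunit protein encoded on chromosome 7 (3703993 to 3706897, plus strand, GRCm38), was the exception among abundant members. It was at 3282, 3236, 3274 and 3066 CPM in T cells and at 1628, 1897, 1908 and 1661 CPM in mature neutrophils. On the TMM scale its log2 fold was 0.09 ± 0.08 (adjusted p = 0.311), and without TMM it was 0.97 and passed as higher in T cells (6.82e-07), so whether Rps9 differed depends on the scaling. Its place among the members does not: Rps9 made up 8.84% ± 0.853 of all member counts in mature neutrophils and 1.72% ± 0.0441 in T cells (SD, n = 4). Rps9 overlaps no other annotated gene. Without Rps9 the summed share of mature neutrophils was 1.91%, 1.75%, 1.87% and 1.79%.

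Rps27a, which is made as a fusion with ubiquitin, came next (0.52 ± 0.07, adjusted p = 0.000118), at 2274, 2230, 2287 and 2197 CPM in T cells and 816.5, 746.6, 895.7 and 915.2 CPM in mature neutrophils. Its gene overlaps Clhc1 on the other strand, and the use of strand in counting is not given in the sources used here. Fau, a ribosomal protein fused to a ubiquitin-like protein and outside the symbol rule, had a log2 fold of 0.43 ± 0.07 (0.000321). Rps27l, a paralogue known as a p53 target, was at 0.63 ± 0.10 (0.00022) and Rps25 at 1.10 ± 0.08 (8.09e-07).

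The 4 members lower in T cells were Rpl3l, Rps4l, Rps23rg1 and Rpl7l1. Rpl3l, the paralogue of Rpl3 known from striated muscle (chromosome 17, 24727820 to 24736143, plus strand), was at 6.155, 9.865, 6.838 and 5.398 CPM in mature neutrophils, 3.114, 3.057, 3.662 and 4.212 CPM in immature ones and 0.1269 to 0.3049 CPM in T cells. It had 413 counts in neutrophils and 13 in T cells over the 4 mice. Rpl3l passed the filter on low counts through neutrophils alone, so its fitted log2 fold of −5.33 ± 0.36 (edgeR) is a description and its place among the 4 is no support. Rpl3 itself moved the other way between the same classes. Rps4l (−1.64 ± 0.18, 1.9e-05), Rps23rg1 (−1.32 ± 0.30, 0.00246) and Rpl7l1 (−0.43 ± 0.11, 0.00439) were also lower on the TMM scale. Without TMM Rpl7l1 passed as higher (0.44, 0.00299), as its CPM of 41.73 to 49.94 in T cells and 27.08 to 31.35 in mature neutrophils shows, and Rps23rg1 did not pass (−0.44, 0.198). Rps4l overlaps Tmtc1 on the other strand.

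The neutrophils were then divided by stage. The summed share was 4.6%, 5.30%, 5.48% and 5.18% in precursors, 2.32%, 2.35%, 2.49% and 2.26% in immature and 2.08%, 1.94%, 2.06% and 1.95% in mature cells. Each stage lay apart from the next in all 4 mice. The ratio was 2.18 ± 0.138 from immature to precursor cells and 1.17 ± 0.0457 from mature to immature cells (SD, n = 4). T cell markers in mature neutrophils summed to 173 to 209 CPM, against 9170 to 10300 CPM in T cells. In the 44.9% to 46.4% of mature neutrophils without a count of any of the 13 T cell markers the share was 1.98%, 1.84%, 2.05% and 1.91%.

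**Figure D3:**
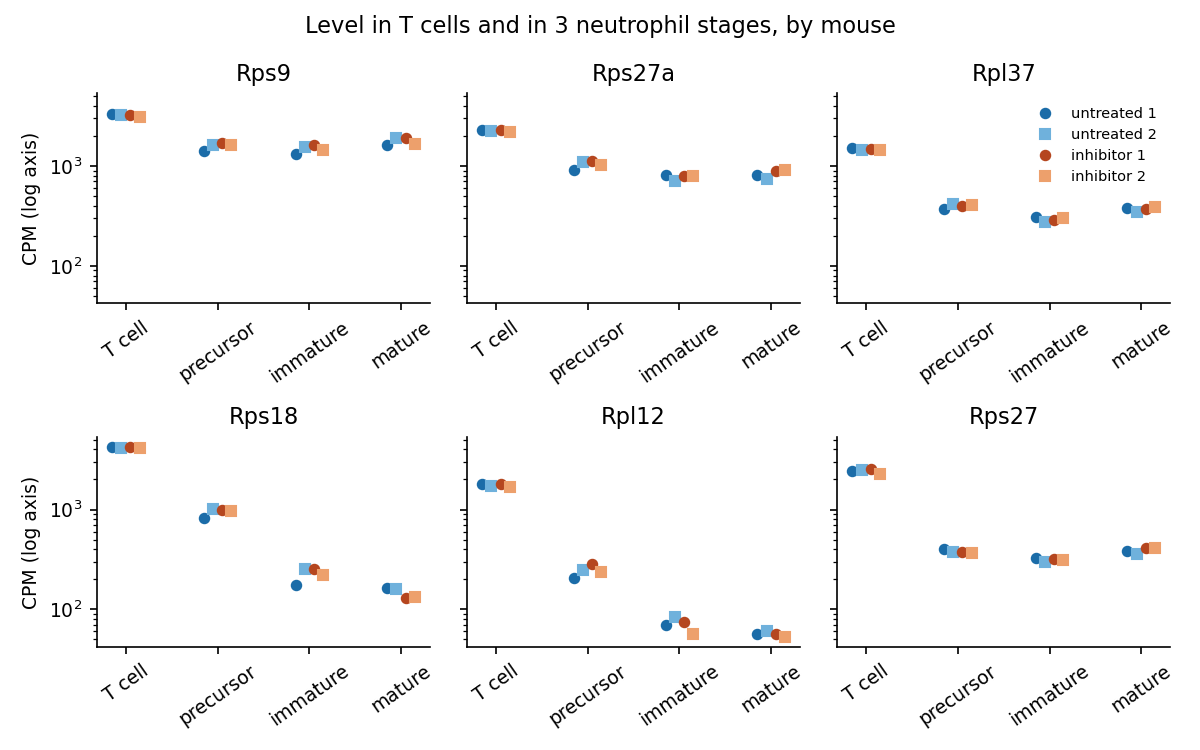
Level of 6 members in CPM (y axis, log scale) in T cells and in precursor, immature and mature neutrophils (x axis), with 1 point per mouse. Rps18 falls from precursor to mature cells in every mouse, while Rps9 is as high in mature as in precursor cells.

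Between immature and mature neutrophils 68 of 91 members were higher in the immature cells and 4 were lower (edgeR, adjusted p under 0.05, 11337 genes), against 15.5% and 14.3% of all genes. The members' median log2 fold was 0.41. Among the largest values were those of Rps4l (1.27 ± 0.27, adjusted p = 0.00446), Rpl36al (1.16 ± 0.19, 0.000864) and Rps20 (0.95 ± 0.06, 1.6e-06). The 4 lower members were Rpl37 (−0.27 ± 0.05, 0.00304), its copy Rpl37rt (−0.29 ± 0.09, 0.0424), Rps27 (−0.25 ± 0.06, 0.00612) and Rps9 (−0.18 ± 0.04, 0.00625). Rpl3l had a log2 fold of −0.87 ± 0.31 (0.0562) and passed as lower without TMM (−0.95, 0.0398), where 66 members were higher and 7 lower. Rpl37, a zinc-binding protein of the large subunit, was at 309.8, 273.5, 287.3 and 300.2 CPM in immature and 382.2, 349.3, 371.8 and 384.8 CPM in mature cells, without overlap.

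Between precursors and immature neutrophils, a contrast added after the data were seen, 81 of 90 members were higher in precursors and 2 were lower (edgeR, 10164 genes), against 25.4% and 22.6% of all genes, with a median log2 fold of 0.83. Rpl3 (2.01 ± 0.12, adjusted p = 1.88e-07), Rpl36al (1.96 ± 0.12, 3.91e-07), Rpl36a (1.88 ± 0.12, 5.39e-07) and Rpl10a (1.75 ± 0.09, 9.62e-08) had the largest values. The 2 lower members were Rps9 (−0.23 ± 0.06, 0.00749) and Rpl3l, which had 6 counts in precursors and 107 in immature cells and passed the filter through the latter alone. Without treated replicate 1 no member was called lower. Rps27 (−0.04 ± 0.08, 0.72), Rps27a (0.08 ± 0.08, 0.434) and Rpl37 (0.11 ± 0.08, 0.291) did not pass. Without TMM the median of all genes was 0.318, 87 members were higher and 1 lower, Rps9 was at 0.10 (0.18), and Rps27 (0.29, 0.00836), Rps27a (0.41, 0.00158) and Rpl37 (0.44, 0.00129) passed as higher. In CPM Rps9 was at 1416, 1641, 1686 and 1615 in precursors and at 1321, 1557, 1616 and 1450 in immature cells, which overlap.

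Against microglia, the resident macrophages of the cord, 86 of 90 members were higher in T cells and 2 were lower (edgeR, 15167 genes), against 27.1% and 29.4% of all genes, with a median log2 fold of 1.42. Rps15a (1.86 ± 0.28, adjusted p = 0.00109), Rpsa (1.80 ± 0.28, 0.00141), Rpl13a (1.77 ± 0.28, 0.00136) and Rpl17 (1.70 ± 0.25, 0.000998) had the largest values. Rps4l (−2.41 ± 0.21, 8.67e-05) and Rps23rg1 (−1.94 ± 0.28, 0.00104) were lower, and Rpl7l1 (−0.34 ± 0.13, 0.0606) and Rps27l (0.32 ± 0.13, 0.0738) did not pass. Without TMM the median of all genes was −0.227, and Rpl7l1 passed as lower too (−0.50, 0.0152). Rps9 was higher in T cells here (1.09 ± 0.20, 0.00262). The T cell markers found in microglia are given with the treatment comparison.

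In B cell precursors against mature B cells no member was higher and 11 of 88 were lower (edgeR, 8347 genes), against 4.54% and 4.5% of all genes, with a median of −0.35. The 13 T cell markers summed to 100, 629, 347 and 225 CPM in the precursors and to 1290, 808, 339 and 817 CPM in mature B cells; their part in the result was not tested. Rps27 (−0.92 ± 0.15, adjusted p = 0.0029), its copy Rps27rt (−0.93 ± 0.20, 0.0135), Rps21 (−0.80 ± 0.21, 0.0353), Rps24 (−0.77 ± 0.19, 0.0282) and Rpl17 (−0.71 ± 0.16, 0.0187) were among them, and Rps27l was at 0.85 ± 0.43 (0.273). Without untreated replicate 1 there was 1 lower member, where 3.76% of all genes passed, and without treated replicate 2 there was 1 (4.89%). Without treated replicate 1 there were 6 lower members (4.78%), and without untreated replicate 2 there were 17 lower and 3 higher (12.4%). There were 34 to 212 B cell precursors per mouse.

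Within the members' own sum, 86 members had at least 100 counts in each of the 16 named classes, and the median range of their share between classes was 0.77 on the log2 scale. Rpl36al ranged most (2.48), from 0.507% of the member counts in plasmacytoid dendritic cells to 0.0913% in mature neutrophils. Rps9 was next (2.41). Rpl31, at the exit of the peptide tunnel, ran from 3.37% in plasmacytoid dendritic cells to 0.686% in gamma-delta T cells (2.30). Rps27l (2.15) was highest in monocytes and macrophages and Rpl10a (2.11) in microglia.

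Some rows are copies of other members. Rpl37rt, Rps27rt, Rps12l1, Rps3a2, Rpl6l and Rps3a3 align to the transcript of their parent with 98.7% to 100% identity (blastn on GENCODE M21). Their counts stood at a near-constant percentage of the parent in every class. Rps27rt was at 18.0% to 21.1% of Rps27, Rps12l1 at 19.5% to 21.3% of Rps12, and Rps3a3 at 4.02% to 4.48% of Rps3a1. Reads of such pairs can be assigned to either row, so the values of both are uncertain to that extent. Paralogues of lower identity varied: Rpl22l1 (74.6% identity) from 27.3% of Rpl22 in dendritic cells to 65.5% in neutrophil precursors, Rpl36al from 44.2% of Rpl36a in mature B cells to 129% in plasmacytoid dendritic cells, and Rps27l from 3.42% of Rps27 in mature B cells to 28.3% in erythroid cells. Rpl3l reached 10.7% of Rpl3 in mature neutrophils and 0.012% in T cells. Rpl32l was at most 0.0591% of Rpl32.

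**Figure D4:**
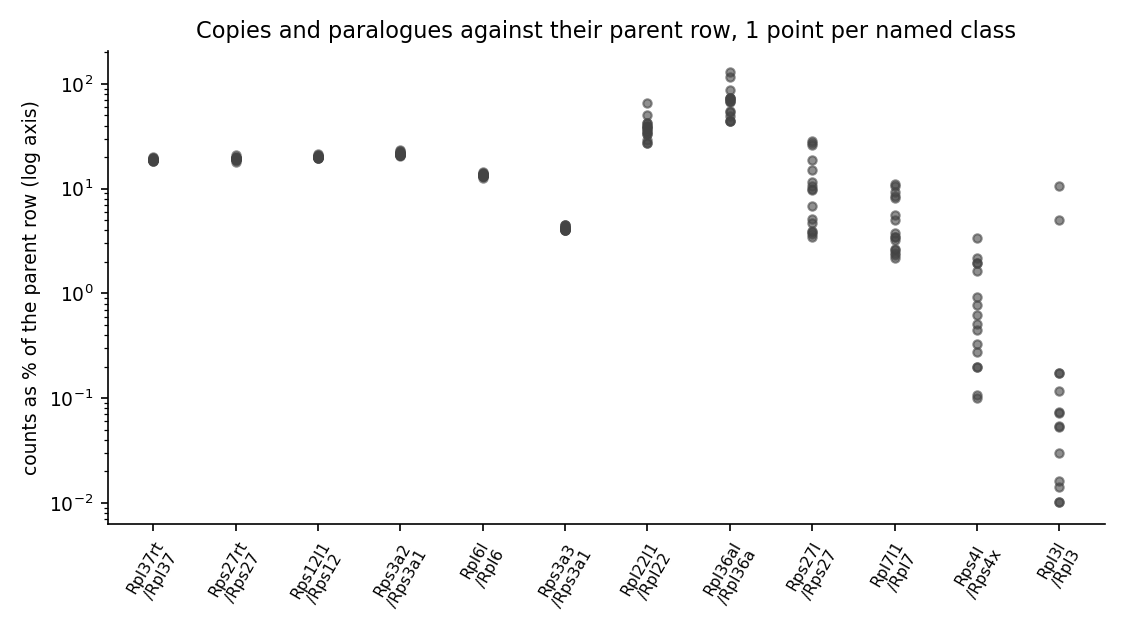
Counts of each copy or paralogue as a percentage of its parent row (y axis, log scale), with 1 point per named class and classes at 0 left out. The 6 near-identical copies on the left form tight groups and the paralogues on the right spread, Rpl3l most.

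Other genes of the ribosome pathway were taken from lists beside the members. The counts for T cells against neutrophils stand beside 37.5% of all genes higher and 34.4% lower. In T cells against neutrophils all 44 ribosome biogenesis genes passed as higher (median 2.40), among them the nucleolar proteins Npm1 (3.38 ± 0.09, adjusted p = 3.68e-10) and Tcof1 (3.82 ± 0.13, 2.7e-09). Of 34 translation factors 28 were higher and 2 lower (median 1.24), with Eef1g (3.02 ± 0.08, 5.07e-10) and Eef1a1 (2.22 ± 0.08, 3.8e-09), both elongation factors. All 5 other ribosome-bound proteins were higher, among them Rack1 (2.60 ± 0.09, 2.8e-09). Of 14 RNA polymerase I genes 13 were higher and 1 lower, Polr1a, the catalytic subunit (−2.33 ± 0.15, 2.78e-07), while Polr1c was at 2.27 ± 0.14 (1.88e-07). Of 22 growth signalling genes 10 were higher and 9 lower, among the lower Mxd1, an antagonist of Myc (−4.34 ± 0.11, 3.62e-10), and Max (−2.88 ± 0.09, 9.68e-10). Of 16 stress and quality control genes 10 were higher, such as Trp53 (2.09 ± 0.12, 9.53e-08), and 5 lower, such as Mdm2 (−1.37 ± 0.10, 8.33e-07). Of 78 mitochondrial ribosomal protein genes 60 were higher and 8 lower (median 0.89), with Mrps6 at 4.08 ± 0.18 (1.16e-08) and Mrpl33 at −1.95 ± 0.09 (2.08e-08).

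Between immature and mature neutrophils 23 of 71 mitochondrial ribosomal protein genes were higher in immature cells and 2 lower (median 0.54). Of 34 translation factors 15 were higher and 2 lower (median 0.34), and of 33 ribosome biogenesis genes 2 were higher and 1 lower (median 0.19), beside the 15.5% and 14.3% of all genes. Differences between the lists were not tested. Between precursors and immature cells 18 of 33 biogenesis genes and 49 of 73 mitochondrial ribosomal protein genes were higher, beside 25.4% of all genes. In the same lists 0 and 2 were lower, beside 22.6% of all genes.

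Over the 16 named classes, the genes outside the members whose log2 level was most like the members' summed share were Gm13436, Gm10288, Gm15500, Gm43028 and Gm9493 (Pearson r of 0.996 to 0.997, of 2110 genes with at least 100 counts in each class). GENCODE types all 5 as processed or transcribed processed pseudogenes, and 18 of the first 20 were pseudogenes. Rack1, at rank 7, was the first protein-coding gene (0.996). The parent genes of these pseudogenes are not given here. Where a parent is a member, reads can be assigned to either row, as for the copies above. How far this made the likeness was not tested. The points share 1 library, and these values are a description.

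The study's 2 groups differ in the inhibitor. In all kept cells the summed share was 12.2% and 13.1% in untreated and 6.87% and 10.6% in treated mice, and both treated mice lay below both untreated mice. Neutrophils, the class with the lowest share, made up 24.7% and 19.3% of the untreated and 63.2% and 37.9% of the treated cells. With the same mixture of classes in each mouse the shares were 10.7%, 11%, 10.4% and 10.4%, and the difference between the group means moved from −3.89 to −0.393 points. Of the 92 members none passed with edgeR or DESeq2 (edgeR called 0.0% of 21136 genes). The unadjusted p was under 0.05 for 1 member, and the median log2 fold was −0.34. In 86 of the 92 both treated mice lay below both untreated mice, against 41.0% of all genes. The smallest p values were those of Rpl3l (1.13 ± 0.41, adjusted p = 0.453), Rps27rt (−0.41 ± 0.20, 0.52) and Rpl12 (−0.50 ± 0.25, 0.52). Without treated replicate 2, 23 members passed as lower and 1 as higher, where 9.73% of all genes passed.

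Within T cells and neutrophils the groups did not separate. The share was 18.7% ± 0.348 and 18.7% ± 0.222 (SD, n = 2 each) in untreated and treated T cells and 2.69% ± 0.314 and 2.60% ± 0.13 in neutrophils. No member passed in T cells (90 tested, median 0.01, 0.0% of 16447 genes) or neutrophils (91 tested, median −0.08, 0.0% of 14896 genes) with edgeR or DESeq2, and 1 in each had an unadjusted p under 0.05. In T cells 6 of 90 members, against 17.9% of all genes, had both treated mice below both untreated mice. Another 11 had both above, as did 2461 of all 16447 genes. In neutrophils 7 of 91 had both below, against 16.2% of all genes. There 3 had both above, as did 2672 of all 14896 genes. Among the smallest p values in T cells were those of Rps19bp1 (0.40 ± 0.14, adjusted p = 1.0) and Rpl36al (0.15 ± 0.07, 1.0). In neutrophils they were those of Rpl36al (−0.47 ± 0.15, 0.974), Rplp1 (−0.21 ± 0.11, 0.974) and Rpl3 (−0.26 ± 0.16, 0.976). Without untreated replicate 1 the members' median log2 fold in neutrophils was −0.22, and without untreated replicate 2 it turned to 0.07. Precursors, the neutrophil stage with the highest share, were 56 of 1066 and 95 of 883 neutrophils in untreated mice. In treated mice they were 187 of 3446 and 101 of 1861. The part of this stage mix in the neutrophil values was not tested. The treatment effect itself differed between neutrophils and T cells in none of 91 members (edgeR interaction, 0.0% of 17476 genes, 1 at an unadjusted p under 0.05, none with DESeq2).

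In microglia the share was 8.31% and 11.6% in untreated and 5.57% and 6.78% in treated mice. None of 90 members passed (edgeR, 0.0% of 14432 genes), and for 68 the unadjusted p was under 0.05, as for 1555 of all genes. The median log2 fold was −0.69, and 85 had both treated mice below both untreated mice, against 19.7% of all genes. Rpl12 (−1.0 ± 0.28, adjusted p = 0.313) and Rps15a (−1.08 ± 0.31, 0.319) are named from the smallest p values, a choice made after they were seen. DESeq2 called 8 members lower, where 1.21% of 14432 genes passed, and edgeR without a filter on low counts 28, where 2.2% of 25474 passed. All 13 T cell markers were higher in untreated than in treated microglia, and summed to 1720 and 3860 CPM against 377 and 806 CPM. Of 14 neutrophil markers 13 were higher in untreated microglia by group mean (4490 and 1170 against 1380 and 1950 CPM), and all 13 microglia markers were lower there (20100 and 14000 against 28000 and 22200 CPM). Microglia without a count of any of the 13 T cell markers numbered 127 and 36 cells against 127 and 111. Their share was 5.23% and 5.65% against 5.11% and 5.43%, so the 2 groups overlapped. These cells were shallower, with median counts of 5497 to 6757 against 8063 to 11155 in all microglia. This comparison was added after the data were seen.

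**Figure D5:**
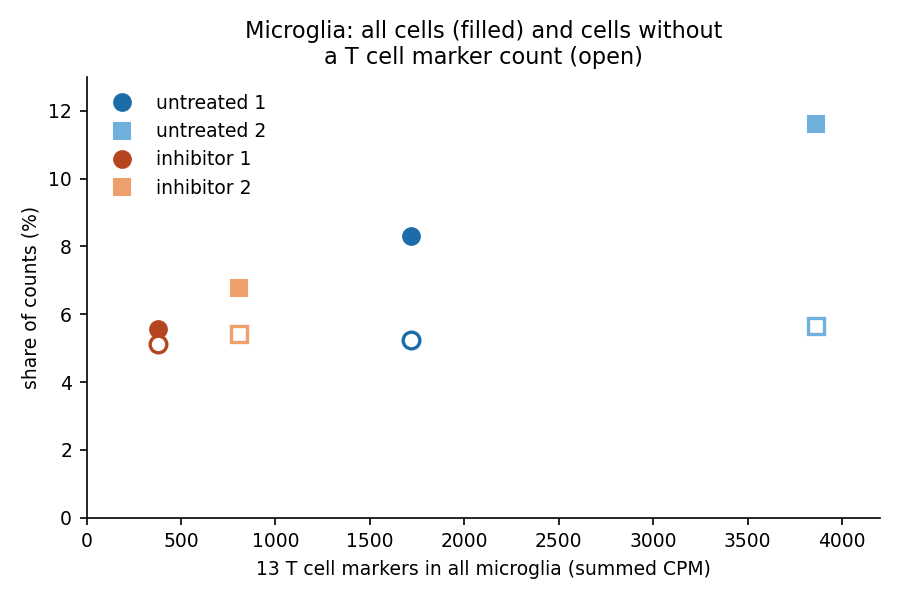
Share of counts of the members in microglia (y axis) against the summed CPM of 13 T cell markers in all microglia of the same mouse (x axis), with filled points for all microglia and open points for microglia without a count of a T cell marker. Filled points run from 5.57% to 11.6% and open points from 5.11% to 5.65%.

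In no other class with enough cells did a member pass with edgeR. In B lineage cells, where 0.0273% of all genes passed, the members' median was −0.22, and in mature B cells (0.0117%) it was −0.23. In neutrophil precursors (0.00983%) it was 0.07 and in cluster 20 (0.0187%) −0.12. In B cell precursors it was 0.22, and in the gamma-delta, regulatory, CD8 and CD4 T cells, T cells without subtype, NK cells, dendritic cells, plasmacytoid dendritic cells, monocytes and macrophages and immature and mature neutrophils it lay between −0.08 and 0.08, with 0.0% of genes called in each. Across these classes 0 to 7 members had an unadjusted p under 0.05.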

How the data were processed

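RNA was sequenced cell by cell in spinal cord CD45+ cells of 4 mice with EAE. The authors deposited whole-number counts per gene and cell from a BD Rhapsody run amplified by TAS-Seq, per the labels' protocols. Per the submitters' processing notes the genome was GRCm38. Neither aligner nor counter is stated in the sources used here. The hashtag library was not analysed here.

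Cells with 1 hashtag (21518) were filtered at 20% mitochondrial counts (1014 removed) and by 1248 doublet calls scored against 3943 cells of several hashtags, leaving 19256. Clustering left out 375 ribosomal protein rows and used Leiden at resolution 1.5 (leidenalg 0.10.2), chosen after the data were seen; at least 3 of a class's markers, each in 25% of a cluster's cells, gave a name. For classes of 30 cells or more in every mouse, counts were summed by mouse and tested with edgeR 4.0.16 (filterByExpr, TMM, glmQLFTest; R 4.3.3) and, as an alternative, DESeq2 1.42.0. Class contrasts had the mouse as a block; log2 folds carry SE. On simulated counts of T cells against neutrophils, 96 of 100 genes changed 2-fold were recovered. The mice are separate animals, so their spread is biological and technical.

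Replicate numbers did not pair mice (correlation of deviations 0.0332 in all cells). Named genes were members with the 4 largest and 4 smallest folds in a contrast or against its direction, the 3 of smallest p by treatment, paralogues, the 5 whose share of the member sum ranged most, the stalk, Rpsa, Rpl10 and Rps6, the 2 genes of smallest p per list and the 5 genes most like the summed share; others were chosen after their values were seen, and a few genes the rule takes are not reported here. The members, lists and rules were chosen with earlier results of these data known. Alternatives are given in the closing section.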

Additional observations from a re-analysis of the deposited data

Results flagged for a closer look

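In 7 of 18 classes both treated mice lay on one side of both untreated mice in the summed share, in opposite directions. The treated mean was higher by 0.733 points in T cells without subtype, 0.472 in plasmacytoid dendritic cells and 1.74 in the Mpo and Elane cluster 24. It was lower in the other 4, at −1.24 points in NK cells, −2.27 in mature B cells, −3.80 in microglia and −1.22 in the dividing cluster 20. These differences between classes were not tested. With 2 mice per group such separation is common among single genes. In T cells 2943 of 16447 genes had both treated mice below both untreated mice and 2461 both above. In neutrophils these were 2408 and 2672 of 14896 genes. The 7 of 18 classes are therefore a description. In mature B cells 12 of 13 T cell markers were higher in untreated mice, with sums of 1290 and 808 against 339 and 817 CPM; their part in the result was not tested. No mouse stood apart from the other 3 by Dixon's criterion in the 22 groups examined.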

How the results depend on the processing

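The total of members called in both directions stayed within 1.5 times between T cells and neutrophils, T cells and microglia, and the neutrophil stages under every alternative run. The few lower calls did not: without TMM they went from 4 to 2 between T cells and neutrophils, from 4 to 7 between immature and mature and from 2 to 1 between precursor and immature neutrophils, and there to 0 without treated replicate 1. For B cell precursors against mature B cells, 11 became 6 without TMM, 25 with no replicate block, 2 with classes set per cell by markers, and 1 to 20 with a mouse left out; the cause was not tested. The 0 of the treatment comparisons became 0 to 24 in all cells, 0 to 10 in neutrophils and 0 to 39 summed over the remaining fits, T cell subtypes and neutrophil stages included, with a mouse left out. Of the 39, all without untreated replicate 1, 27 were higher in B cell precursors (11.5% of all genes called) and 8 were lower in microglia (1.86%), 3 in B lineage cells (5.64%) and 1 in immature neutrophils (1.61%). Without treated replicate 2, 16 were lower in cluster 20 (4.8%) and 1 higher in plasmacytoid dendritic cells (0.662%). In those fits it also became 28 without the filter and 8 with DESeq2, all in microglia, and 4 with the replicate block, all in mature B cells. The replicate block changed no other treatment call. The share's treatment difference moved from −3.89 to −0.393 points with a fixed class mixture and, in microglia, from −3.80 to −0.17 in cells without T cell markers. With a mouse left out the difference lay between −5.76 and −2.02 points in all cells and −5.46 and −2.14 in microglia. Fits with a mouse left out have a lone mouse in a group, assumed to vary like the others. With 2 mice per group, small treatment effects could not be detected; 66 of 100 simulated 2-fold changes were recovered in neutrophils.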
